A study of Saccharomyces cerevisiae with 15 samples.

Results

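The genes described here encode enzymes of the tricarboxylic acid (TCA) cycle and the peroxisomal citrate synthase Cit2, whose gene is the classical readout of retrograde signaling from mitochondria to the nucleus. They were defined by name, by a rule that uses no measured value, but were chosen with earlier results of these data known. They are 10 of the 7127 genes of the count table: CIT1 (YNR001C), CIT2 (YCR005C), CIT3 (YPR001W), ACO1 (YLR304C), IDH1 (YNL037C), IDH2 (YOR136W), KGD1 (YIL125W), KGD2 (YDR148C), FUM1 (YPL262W) and MDH1 (YKL085W). The data are RNA-seq read counts from budding yeast of the W303 background, in 15 libraries that form 5 groups of 3 biological replicates. The groups were pdr3Δ and wild-type (PDR3) cells overexpressing Psd1, an enzyme of the mitochondrial inner membrane, pdr3Δ and wild-type cells overexpressing MTSMge1-mCherry, and wild-type cells overexpressing MTSMss116-mCherry. MTSMge1 and MTSMss116 are the N-terminal mitochondrial targeting sequences of the nucleotide exchange factor Mge1 (residues 1 to 44) and the RNA helicase Mss116 (residues 1 to 53). Expression was driven by a galactose-inducible promoter in cells pregrown with 2% raffinose, with 1% galactose present for 4 h. The comparisons ask what a targeting sequence fused to mCherry, an import-blocking protein and the transcription factor Pdr3 do to the transcriptome. All groups shared the W303 auxotrophic markers, and the labels give an empty 2-micron plasmid for every sample, although the strain list of the study names none for the wild-type Psd1 strain. Each group is 1 strain. No group without a construct and no pdr3Δ group with MTSMss116 was analysed, so the MTSMss116 cells served as the comparison for both other constructs in PDR3 cells.

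In the TCA cycle, citrate synthase joins acetyl-CoA and oxaloacetate, and the products are oxidized stepwise back to oxaloacetate in the mitochondrial matrix. When respiration fails, yeast cells keep making glutamate precursors through the retrograde pathway, in which Rtg2 relieves inhibition by Mks1 and the factors Rtg1 and Rtg3, which bind the R box, GTCAC, activate CIT2 and DLD3 and, in cells with reduced respiration, also CIT1, ACO1, IDH1 and IDH2. In respiring cells the same early TCA cycle genes are driven by the HAP complex, which binds CCAAT. Pdr3 acts through a different element, TCCGCGGA, upstream of drug pump genes such as PDR5.

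The upstream sequences below are shown because they hold the elements named above. They were read from the R64 genome, written 5′ to 3′ on the strand of the gene, with matches to GTCAC or its reverse complement GTGAC in capitals for CIT2, DLD3 and CIT1, and with TCCGCGGA in capitals for LPD1. The CIT2 stretch runs from 400 to 101 bp before the start codon, chrIII:122429-122728 on the minus strand, the DLD3 stretch lies at chrV:16135-16254 on the plus strand, the CIT1 stretch at chrXIV:631362-631481 on the minus strand, and the LPD1 stretch at chrVI:103248-103367 on the minus strand.
CIT2: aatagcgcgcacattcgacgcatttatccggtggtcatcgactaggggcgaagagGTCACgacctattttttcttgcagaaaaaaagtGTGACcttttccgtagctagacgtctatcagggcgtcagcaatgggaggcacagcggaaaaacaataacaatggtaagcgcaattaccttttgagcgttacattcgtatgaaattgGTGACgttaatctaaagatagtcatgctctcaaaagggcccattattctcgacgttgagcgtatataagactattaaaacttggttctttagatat
DLD3: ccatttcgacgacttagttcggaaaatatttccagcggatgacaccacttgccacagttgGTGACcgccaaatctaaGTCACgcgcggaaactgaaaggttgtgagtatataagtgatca
CIT1: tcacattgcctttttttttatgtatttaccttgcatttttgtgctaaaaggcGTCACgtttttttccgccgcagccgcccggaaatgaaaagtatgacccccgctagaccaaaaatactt
LPD1: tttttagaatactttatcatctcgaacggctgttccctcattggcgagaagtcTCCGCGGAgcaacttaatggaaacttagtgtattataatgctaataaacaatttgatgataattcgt

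CIT2 had the most R boxes of the 10 genes. Its 3 matches lay 345, 312 and 196 bp before the start codon, and 3 or more were found in 2.3% of the 6000 upstream stretches of 500 bp that were searched on both strands. DLD3, the gene of a cytosolic lactate dehydrogenase and also a retrograde target, had matches at 160 and 143 bp. At least 1 GTCAC was present before 7 of the 10 genes (CIT1, CIT2, CIT3, ACO1, IDH1, KGD1 and FUM1), against 42.5% of all stretches, and CCAAT was present before 10 of 10, against 62.4%. TCCGCGGA was found before none of the 10, at 0.65% of all stretches, and the degenerate form TCCGNGGA, which includes TCCGCGGA, was found before FUM1 only, at 2.92% of all stretches. LPD1, the gene of the dihydrolipoamide dehydrogenase subunit that the α-ketoglutarate and pyruvate dehydrogenase complexes share, had TCCGCGGA at 187 bp. These matches describe the letters only.

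The labels were checked against the targeted genes. PDR3 averaged 0 CPM (counts scaled to library size) in Psd1 pdr3Δ cells and 0.06 CPM in MTSMge1 pdr3Δ cells. It averaged 72.0 to 295 CPM in the PDR3 groups. Each overexpressed gene stood above all other groups in its own cells. PDR5, a Pdr3 target, averaged 3454 CPM in wild-type cells with Psd1 and 4809 CPM with MTSMge1, against 172 to 182 CPM in the other 3 groups. Total counts were 9128344 to 15953662 per library, and each of the 10 genes had at least 184 counts in every library and passed the filter on low counts in every comparison. No stretch of 59 bases, the read length, of the 10 genes occurs elsewhere in the genome.

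The 10 mRNAs spanned a wide range of levels. Per kilobase of coding length in MTSMss116 cells, ACO1 (aconitase) led with 861 ± 121 CPM per kb, followed by MDH1 (mitochondrial malate dehydrogenase) with 819 ± 64.5, CIT1 (the mitochondrial citrate synthase) with 686 ± 176, IDH1 and IDH2 (the subunits of NAD-dependent isocitrate dehydrogenase) with 619 ± 29.2 and 587 ± 30.0, and FUM1 (fumarase) with 536 ± 47.8 CPM per kb (SD, n = 3 each). KGD2 (the E2 subunit of α-ketoglutarate dehydrogenase) had 436 ± 38.6, CIT2 347 ± 203, KGD1 (the E1 subunit of the same complex) 198 ± 26.5, and CIT3 (a mitochondrial citrate and methylcitrate synthase) 22.4 ± 9.75 CPM per kb. In that order, neighbours differed by less than the sum of their SDs, except FUM1 from KGD2 and KGD1 from CIT3. CIT2 varied most among the 15 libraries, with 6.57-fold between the lowest and the highest CPM, against 3.54-fold for CIT1, 3.30-fold for CIT3 and 1.88- to 2.44-fold for the other 7 genes. The summed CPM of the 10 genes was 4576, 5103 and 3574 in replicates 1, 2 and 3 of Psd1 pdr3Δ cells, 5887, 5593 and 3924 in Psd1 wild-type cells, 5435, 5995 and 4487 in MTSMge1 pdr3Δ cells, 7258, 7083 and 5272 in MTSMge1 wild-type cells, and 7207, 8953 and 6800 in MTSMss116 cells. Replicate 3 was the lowest library of every group.

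**Figure D1:**
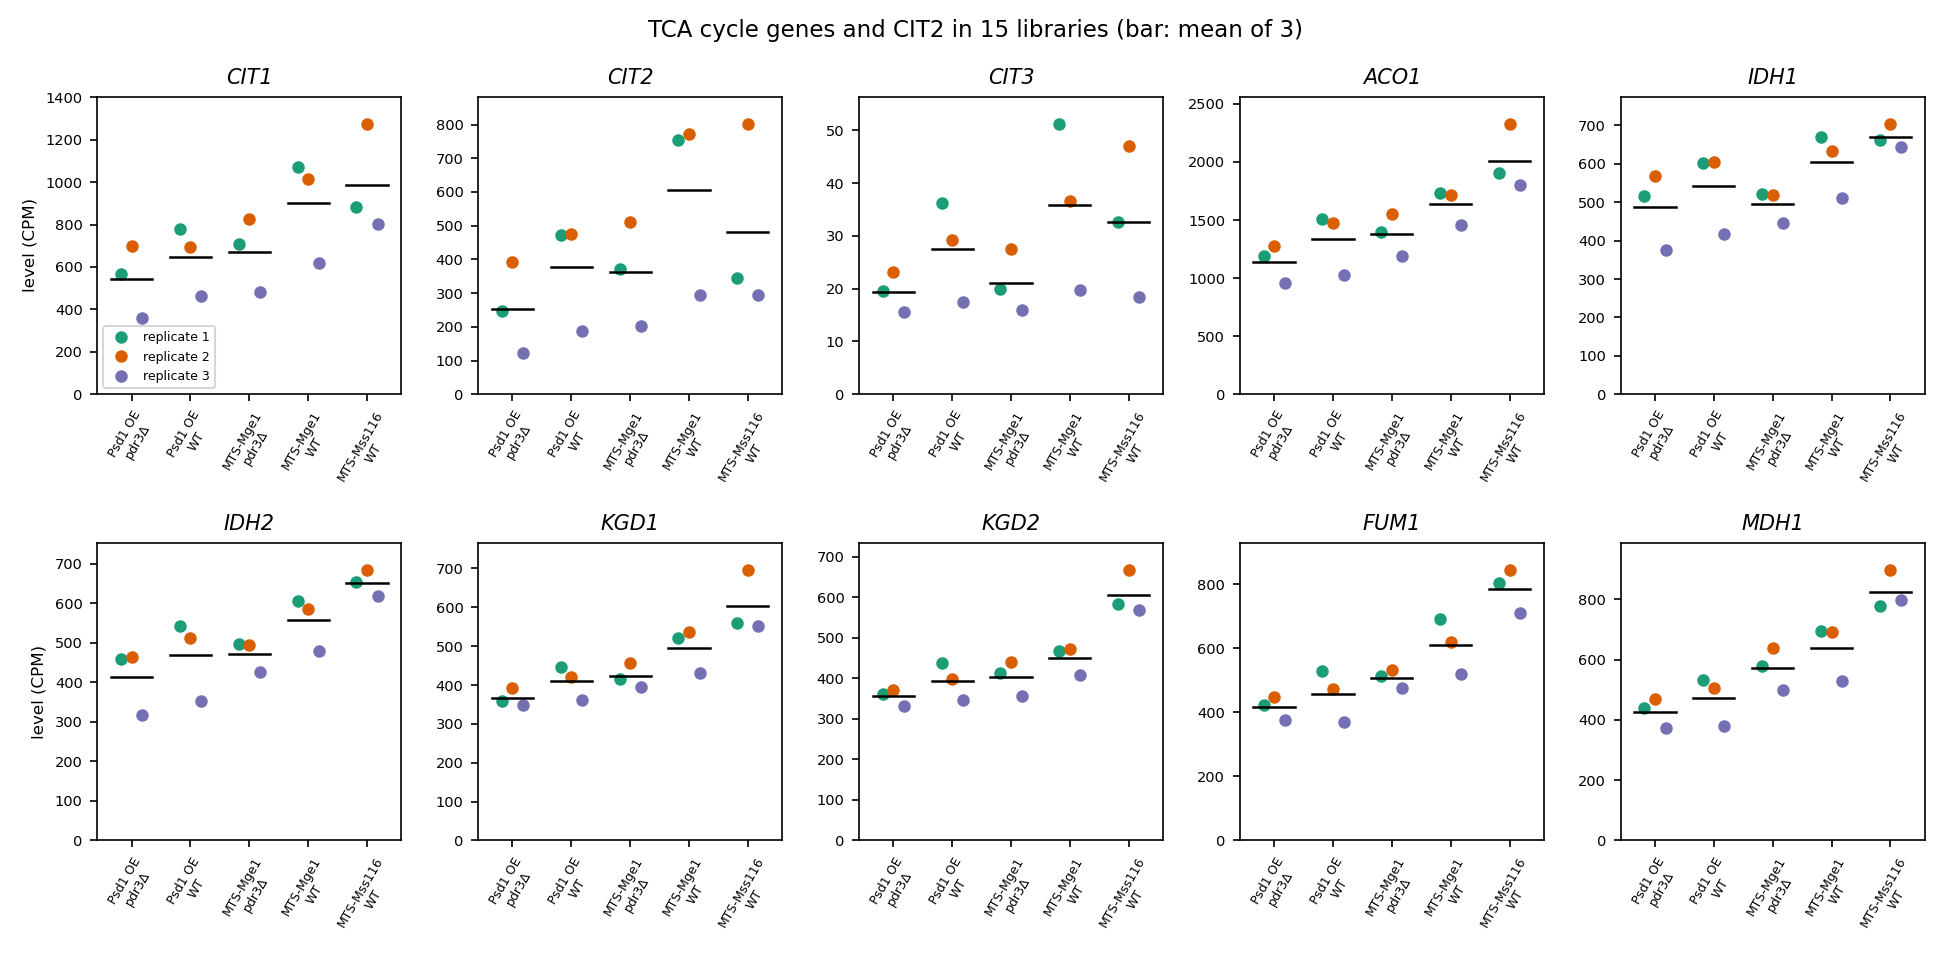
Level of each of the 10 genes in CPM (y axis, linear from 0) in the 15 libraries, by group (x axis). Points are replicates 1, 2 and 3 and the bar is the mean of 3. For CIT2 the replicate 3 points lie at 122 to 294 CPM, below replicates 1 and 2 in each group.

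The replicate number was a large source of spread for these genes. Replicate 3 had the lowest CPM of its group in all 5 groups for 9 of the 10 genes, against 11.2% of all genes, and for MDH1 in 4 of 5 groups. In an edgeR fit of all 15 libraries with group and number as terms, run after the values were seen, all 10 genes differed between the numbers at an adjusted p of at most 0.05, against 36.3% of the 6251 genes tested. For CIT2 the log2 fold change of replicate 3 over replicate 1 was -0.99 (adjusted p = 5.70e-04, quasi-likelihood F test with Benjamini-Hochberg adjustment), for CIT3 -0.81 and for CIT1 -0.59. The labels do not say what a replicate number stands for. Whether samples with the same number share a day or a batch was not tested, and the counts below are given with the number as a block where the numbers were found to pair the samples, which was the case for both comparisons of pdr3Δ with wild-type cells.

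Psd1 overexpression was compared with MTSMss116 in PDR3 cells. KGD2, FUM1 and MDH1 fell in Psd1 cells, and the other 7 genes had log2 fold changes between -0.59 and -0.23 that did not pass the test. MDH1 had 534, 506 and 380.0 CPM in Psd1 cells, against 777, 897 and 796 CPM in MTSMss116 cells. FUM1 had 531, 474 and 370.2 CPM, against 805, 845 and 709 CPM. KGD2 had 438, 399 and 346 CPM, against 583, 668 and 568 CPM. Every Psd1 library was below every MTSMss116 library for these 3 genes. The log2 fold changes were -0.78 (SE 0.15, adjusted p = 0.0321), -0.76 (SE 0.16, adjusted p = 0.0371) and -0.61 (SE 0.13, adjusted p = 0.0396) by edgeR's quasi-likelihood test over 6168 genes. The 3 of 10 that fell stand beside 1.91% of all genes, and the median log2 fold change of the 10 was -0.56, beside 0.01 for all genes. None of the 10 passed the 2-fold threshold on top of the adjusted p, in this or any other comparison.

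The other genes were on the same side without passing the test. KGD1 had 446, 421 and 362 CPM in Psd1 cells, against 561, 697 and 553 CPM in MTSMss116 cells (log2 fold change -0.54, edgeR adjusted p = 0.0666). ACO1 had 1507, 1473 and 1024 CPM, against 1905, 2331 and 1798 CPM (-0.58, edgeR adjusted p = 0.118). IDH2 (-0.46) and IDH1 (-0.29) also had all Psd1 libraries below all MTSMss116 libraries, as had CIT1 (-0.59), so that 8 of 10 genes did not overlap, beside 13.8% of all genes that were lower without overlap. The citrate synthase genes were the most variable. CIT1 had 781, 696 and 464 CPM, against 884, 1276 and 803 CPM. CIT2 had 472, 476 and 188 CPM, against 345, 803 and 293 CPM, a log2 fold change of -0.33 with an SE of 0.48, and its groups overlapped. CIT3 overlapped as well (-0.23). Of the other 16 genes of the cycle and of pyruvate entry, SDH1 (-0.84) and SDH4 (-0.66), subunits of succinate dehydrogenase, and IDP1 (-0.47), the mitochondrial NADP-dependent isocitrate dehydrogenase, fell by edgeR, and none rose. DESeq2 called 8 of the 16 lower and none higher. With libraries left out in turn, the IDP1 call held only without MTSMss116 replicate 2, the SDH1 call without MTSMss116 replicate 2 or 3, and the SDH4 call without these or Psd1 replicate 1.

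The calls in this comparison rested on few libraries. Leaving out MTSMss116 replicate 2 gave 4 of 10 genes (KGD1, KGD2, FUM1 and MDH1), beside 10% of all genes lower, and leaving out any other 1 of the 6 libraries gave none, as did leaving out replicate 3 of both groups, an alternative added after the data were seen. DESeq2 gave 5 (ACO1 and KGD1 in addition), beside 6.59% of all genes lower, and scaling by total library size ended the KGD2 call (edgeR adjusted p = 0.0527).

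MTSMge1 was compared with MTSMss116 in PDR3 cells, which asks what this targeting sequence does beyond a targeting sequence in general. This comparison and the preceding one share the MTSMss116 libraries. None of the 10 genes passed edgeR's test, beside 0.0323% of all genes lower and 0.614% higher. At an unadjusted p under 0.05 there were 3, and DESeq2 called 1, KGD2 (adjusted p = 0.0293), beside 0.874% of all genes lower. CIT2 had 754, 773 and 294 CPM in MTSMge1 cells, against 345, 803 and 293 CPM in MTSMss116 cells (log2 fold change 0.35, SE 0.49, edgeR adjusted p = 0.938). The groups overlapped, and the highest and the lowest library of each were close in level to those of the other. CIT1 had 1073, 1016 and 617 CPM, against 884, 1276 and 803 CPM (-0.12), and CIT3 had 51.3, 36.5 and 19.8 CPM, against 32.5, 47.0 and 18.5 CPM (0.15), both with overlapping groups. KGD2, FUM1, MDH1, ACO1, KGD1 and IDH2 were lower in MTSMge1 cells without overlap, and IDH1 (-0.13) overlapped. KGD2 had 467, 473 and 408 CPM, against 583, 668 and 568 CPM (-0.42, SE 0.11, edgeR adjusted p = 0.378). The log2 fold changes of the other 5 were -0.35 (FUM1), -0.35 (MDH1), -0.28 (ACO1), -0.27 (KGD1) and -0.21 (IDH2). These 6 of 10 stand beside 6.42% of all genes that were lower without overlap, and the median of the 10 was -0.24, beside -0.00 for all genes. Of the other 16 genes of the cycle and pyruvate entry, 15 were below 0, with LPD1 on the other side at 0.22. edgeR called none of the 16, and DESeq2 called SDH1 (-0.47, adjusted p = 0.0104) and PYC2 (-0.38, adjusted p = 0.0136).

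**Figure D2:**
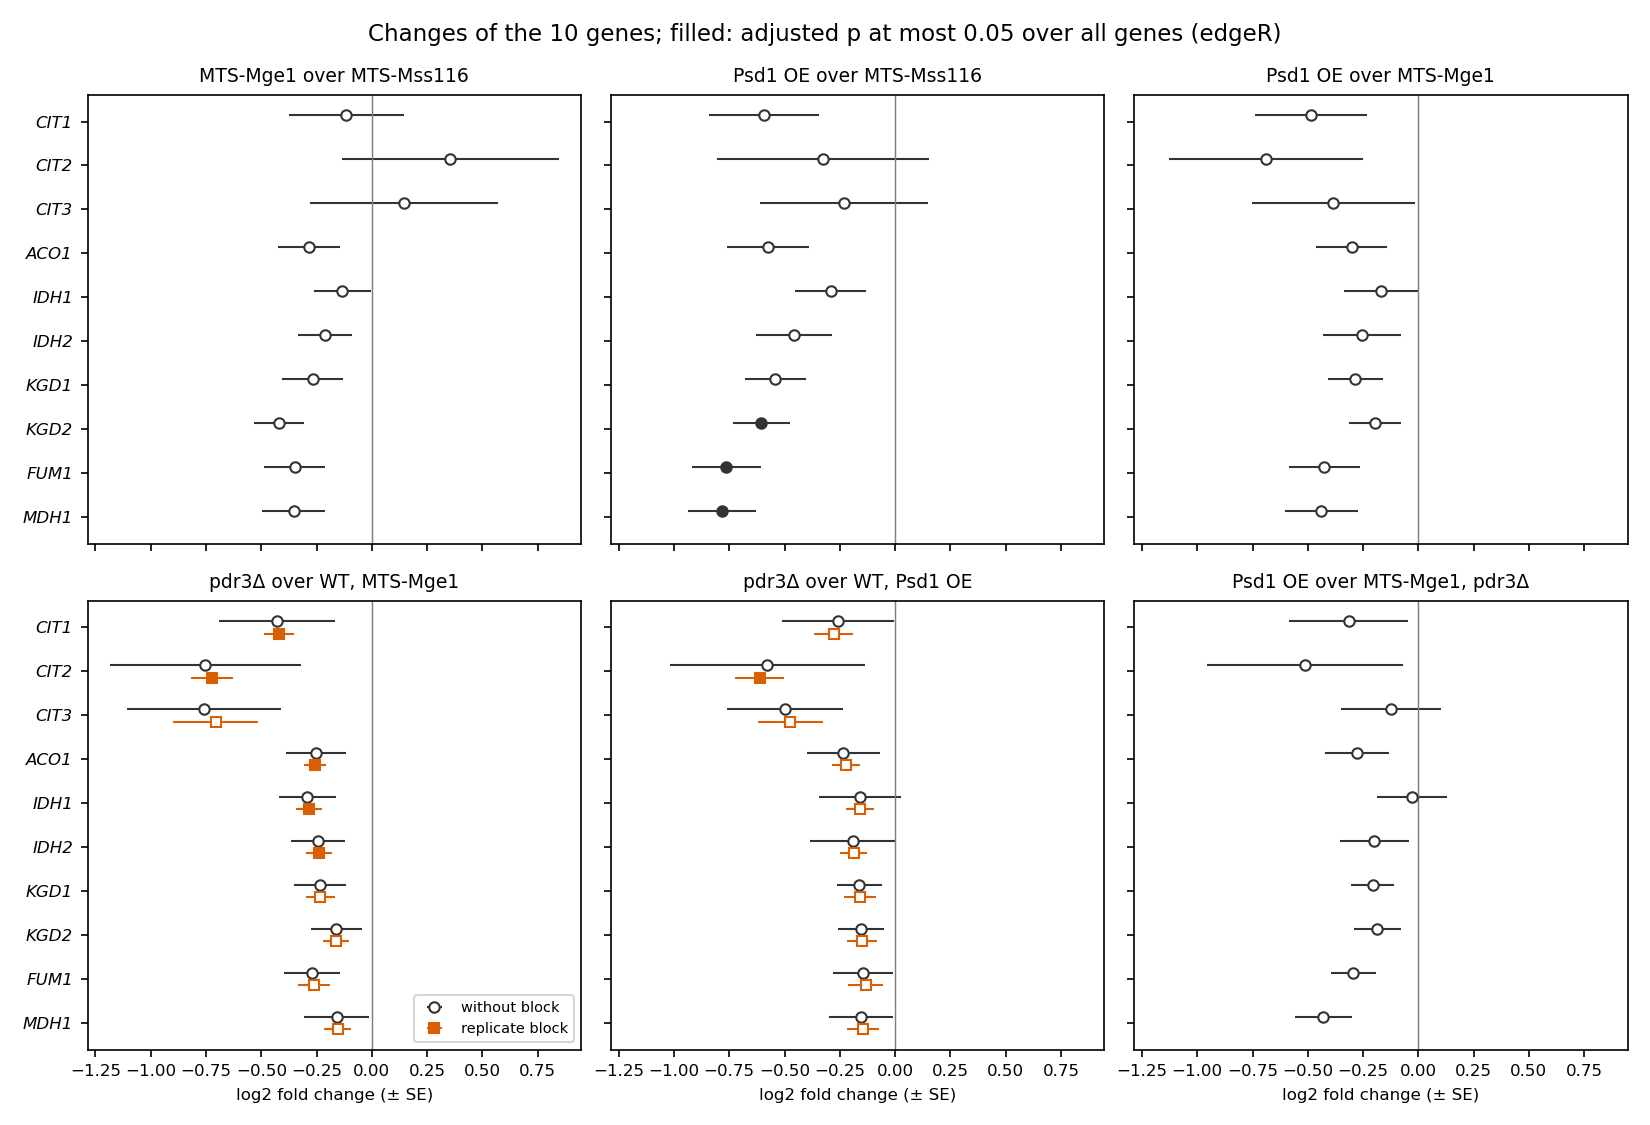
Log2 fold change (x axis) of each of the 10 genes (y axis) in the 6 comparisons, named above each panel, with the SE as a bar. Circles are fits without the replicate block, squares (shown only for pdr3Δ over wild type) fits with it, and filled symbols have an adjusted p of at most 0.05 over all genes in edgeR. Filled circles appear only for KGD2, FUM1 and MDH1 in Psd1 over MTSMss116.

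Deletion of PDR3 was examined under MTSMge1. All 10 genes were lower in pdr3Δ cells in 3 of 3 same-numbered pairs, and 5 of the 10 genes fell once the replicate number was taken as a block. For no comparison was the share of all genes lower in 3 of 3 pairs computed. Counts of such pairs, here and below, therefore describe the 10 genes only. CIT2 had 371, 511 and 202 CPM in pdr3Δ cells, against 754, 773 and 294 CPM in wild-type cells. The log2 differences of the pairs were -1.02, -0.60 and -0.54. With the block the log2 fold change of CIT2 was -0.72 (SE 0.09, edgeR adjusted p = 0.00279), and without it -0.75 (SE 0.43, edgeR adjusted p = 0.862). The groups overlapped, because replicate 3 of the wild-type cells was below replicates 1 and 2 of the pdr3Δ cells.

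CIT1 had 710.5, 825 and 481 CPM in pdr3Δ cells, against 1073, 1016 and 617 CPM in wild-type cells (blocked log2 fold change -0.42, edgeR adjusted p = 0.00986). ACO1 had 1394, 1549 and 1188 CPM, against 1732, 1716 and 1461 CPM (-0.26, edgeR adjusted p = 0.0244). IDH1 had 522, 519 and 445 CPM, against 669, 633 and 511 CPM (-0.29, edgeR adjusted p = 0.0298). IDH2 had 497, 494 and 427 CPM, against 605, 586 and 480.3 CPM (-0.24, edgeR adjusted p = 0.0473). The 5 genes that fell under the block (CIT1, CIT2, ACO1, IDH1 and IDH2) are the ones listed above as retrograde targets besides DLD3, and they stand beside 3.54% of all genes that fell under the block. A further retrograde target outside the 10, ATO3, rose under the block. GTCAC was absent before IDH2, which fell, and present before CIT3, KGD1 and FUM1, which were not called. Whether the 5 genes that fell differed from the other 5 was not tested. CIT3 had 19.9, 27.6 and 16.0 CPM, against 51.3, 36.5 and 19.8 CPM, with the largest pair difference of the 10 (-1.37 in pair 1), and was not called. KGD1, KGD2, FUM1 and MDH1 had blocked log2 fold changes from -0.26 to -0.15 that did not pass the test. This range takes in the values of ACO1 (-0.26) and IDH2 (-0.24), which passed it.

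Without the block, edgeR called none of the 10 genes, beside 0.663% of all genes lower, and none had an unadjusted p under 0.05. DESeq2 without a block also called none, beside 1.12% of all genes lower. None of the 10 was lower without overlap, beside 6.19% of all genes. Leaving out replicate 3 of both groups, without a block, gave 1 gene, CIT2 (-0.80, edgeR adjusted p = 0.0357), beside 1.28% of all genes lower. Outside the 10, the cytosolic isozymes IDP2 (-0.76, NADP-dependent isocitrate dehydrogenase) and MDH2 (-0.48, malate dehydrogenase), the methylcitrate dehydratase gene PDH1 (-0.42) and LSC2 (-0.26, a succinyl-CoA ligase subunit) also fell under the block. PYC2 (0.27, pyruvate carboxylase) and ATO3 (0.30, an ammonium transporter) rose. ATO3 was listed with DLD3 as a further retrograde target, and it went the other way from CIT2. DLD3 had a blocked log2 fold change of -0.29 that did not pass the test (edgeR adjusted p = 0.101).

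**Figure D3:**
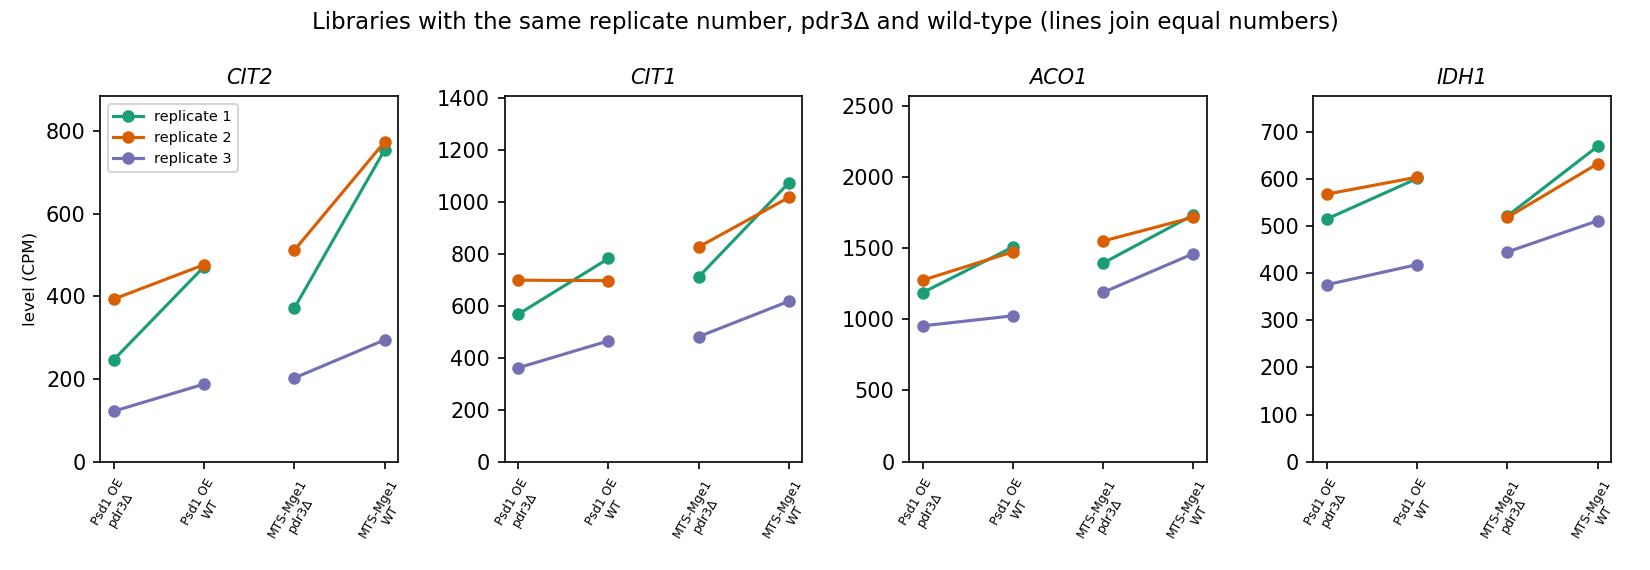
CIT2, CIT1, ACO1 and IDH1 in CPM (y axis, linear from 0) in pdr3Δ and wild-type cells with Psd1 or MTSMge1 (x axis), with lines joining libraries of the same replicate number. For CIT2 all 6 lines are lower on the pdr3Δ side, and replicate 3 lies below the other numbers in all 4 groups.

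The PDR3 deletion was examined in the same way under Psd1 overexpression. CIT2 was again lower in 3 of 3 pairs and was the only one of the 10 genes to fall under the block. It had 247, 393 and 122 CPM in pdr3Δ cells, against 472, 476 and 188 CPM in wild-type cells, with pair differences of -0.93, -0.28 and -0.62. The blocked log2 fold change was -0.61 (SE 0.11, edgeR adjusted p = 0.0149), and the unblocked one -0.58 (SE 0.44, edgeR adjusted p = 0.548). The 1 of 10 stands beside 4.98% of all genes that fell under the block. CIT1 had 567, 698 and 361 CPM, against 781, 696 and 464 CPM, and replicate 2 was nearly equal in both genotypes. All 10 genes had negative log2 fold changes, from -0.58 to -0.15 without the block, with a median of -0.18, and 8 of 10 were lower in 3 of 3 pairs, the exceptions being CIT1 and FUM1. Without the block edgeR called none of the 10, beside 0.602% of all genes lower, none had an unadjusted p under 0.05, and DESeq2 called none, beside 1.32% of all genes lower. None was lower without overlap, beside 9.14% of all genes. Under the block DLD3 (-0.35), LPD1 (-0.24), LSC2 (-0.24) and KGD4 (-0.28), an accessory subunit of α-ketoglutarate dehydrogenase, also fell. ATO3 (0.49), listed as a retrograde target with DLD3, rose.

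The difference between these deletion effects was tested as an interaction of construct and genotype. No gene of the 10 was called by edgeR or DESeq2, and none had an unadjusted p under 0.05, beside 0.0160% of 6238 genes called higher. The interaction values, Psd1 minus MTSMge1, ran from -0.00 to 0.25 on the log2 scale. So a change under the block in MTSMge1 cells and not in Psd1 cells, as for CIT1, ACO1, IDH1 and IDH2, was not shown to differ between the constructs. In counts simulated for the interaction, edgeR recovered 8% of genes changed by a log2 fold of 0.5, so a difference of that size could be missed.

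Psd1 overexpression was also set directly against MTSMge1. In PDR3 cells all 10 genes were on the lower side in Psd1 cells (log2 fold changes from -0.69 to -0.17, median -0.34), and edgeR called none, beside 1.46% of all genes lower. At an unadjusted p under 0.05 there were 2, and DESeq2 called none, beside 4.44% of all genes lower. CIT2 averaged 379 ± 165 CPM in Psd1 cells and 607 ± 271 CPM in MTSMge1 cells (SD, n = 3 each), a log2 fold change of -0.69 (SE 0.44, edgeR adjusted p = 0.420). MDH1 averaged 473 ± 82.0 CPM and 638 ± 95.4 CPM (-0.44, edgeR adjusted p = 0.178). None of the 10 was lower without overlap, beside 12.5% of all genes. In same-numbered pairs all 10 genes were lower in Psd1 cells in 3 of 3, with CIT2 at -0.68, -0.70 and -0.65. The replicate block called 7 of the 10, beside 8.88% of all genes lower, with CIT2 at -0.68 (edgeR adjusted p = 2.05e-04). The block was not the main fit here, because 1 pair of numbers was under the limit set for pairing. When replicate 3 of both groups was left out, edgeR called 6 (CIT1, CIT2, ACO1, KGD1, FUM1 and MDH1), with CIT2 at -0.69 (adjusted p = 5.67e-04), beside 6.24% of all genes lower.

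In pdr3Δ cells the same constructs gave log2 fold changes from -0.51 to -0.03 (median -0.24). No call was made by edgeR, beside 1.74% of all genes lower, 2 genes had an unadjusted p under 0.05, and DESeq2 called FUM1 and MDH1, beside 4.58% of all genes lower. MDH1 had 439, 468 and 373 CPM with Psd1, against 579, 639.6 and 499 CPM with MTSMge1 (-0.43, edgeR adjusted p = 0.117). Without MTSMge1 pdr3Δ replicate 3 it was called (edgeR adjusted p = 0.0404), beside 2.71% of all genes lower. MDH1, FUM1 and KGD1 were lower without overlap, 3 of 10 beside 12.8% of all genes. MDH2 was higher with Psd1 in these cells (0.42, edgeR adjusted p = 0.0417), a call that held only without MTSMge1 pdr3Δ replicate 3 among the 6 libraries left out in turn, and that scaling by total library size or a fit of all 5 groups ended (edgeR adjusted p = 0.0644 and 0.0773).

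Ratios within a library do not depend on the scaling between libraries. The share of CIT2 in the summed citrate synthase mRNA (CIT1, CIT2 and CIT3, per kb) was 30.7 ± 5.49% in Psd1 pdr3Δ cells, 35.7 ± 6.10% in Psd1 wild-type cells, 34.3 ± 4.33% in MTSMge1 pdr3Δ cells, 39.0 ± 5.73% in MTSMge1 wild-type cells and 31.3 ± 6.42% in MTSMss116 cells (SD, n = 3 each). Exact two-sided permutation tests of the 6 comparisons gave p from 0.2 to 0.5, where 3 against 3 cannot go below 0.1. In same-numbered pairs the share was lower in pdr3Δ cells in 3 of 3 under Psd1 and in 3 of 3 under MTSMge1, with mean differences of -5.02 and -4.71 percentage points, and an exact two-sided test over the signs of the pairs, added after the data were seen, gave p = 0.25 for each, the smallest that 3 pairs allow. The IDH2 to IDH1 ratio was 0.828 ± 0.037 in Psd1 pdr3Δ, 0.844 ± 0.031 in Psd1 wild-type, 0.930 ± 0.0037 in MTSMge1 pdr3Δ, 0.901 ± 0.018 in MTSMge1 wild-type and 0.949 ± 0.013 in MTSMss116 cells. The KGD2 to KGD1 ratio ran from 1.99 ± 0.070 in MTSMge1 wild-type cells to 2.21 ± 0.095 in MTSMss116 cells.

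Among the 8 regulators of the retrograde pathway, RTG3 differed with the PDR3 genotype under both constructs. It had 55.3, 55.7 and 63.8 CPM in Psd1 pdr3Δ cells, against 83.2, 83.1 and 85.1 CPM in Psd1 wild-type cells, and 62.5, 59.6 and 62.7 CPM in MTSMge1 pdr3Δ cells, against 102, 112 and 107 CPM in MTSMge1 wild-type cells. MTSMss116 cells had 53.3, 68.0 and 61.4 CPM. RTG3 was lower in pdr3Δ cells under MTSMge1 (log2 fold change -0.80, SE 0.08, edgeR adjusted p = 0.00291), also with any 1 library left out, and under Psd1 (-0.53, edgeR adjusted p = 0.0173), where, with libraries left out in turn, the call held only without replicate 3 of either group. It was higher with MTSMge1 than with MTSMss116 (0.82, edgeR adjusted p = 0.0234) and with Psd1 than with MTSMss116 (0.48, edgeR adjusted p = 0.0477). Both of these calls held only without MTSMss116 replicate 2 among the libraries left out in turn, and the second was also lost with RLE size factors, with total library size or with no filter (edgeR adjusted p = 0.0580 to 0.0595). RTG3 was lower with Psd1 than with MTSMge1 in PDR3 cells (-0.36, edgeR adjusted p = 0.0289), a call held only without MTSMge1 replicate 3. The 561 bp between RTG3 and its divergent neighbour SFT2 hold no match to TCCGCGGA or TCCGNGGA. Other forms of the element were not searched. edgeR called RTG1, RTG2 and MKS1 in none of the 6 comparisons. DESeq2 called RTG1 lower with Psd1 than with MTSMge1 in PDR3 cells (-0.40, adjusted p = 0.0247) and in pdr3Δ cells (-0.54, adjusted p = 0.00362). RTG1 averaged 31.0 ± 4.76, 32.7 ± 3.62, 44.8 ± 0.102, 43.0 ± 1.63 and 39.4 ± 1.72 CPM, RTG2 130 to 143 CPM and MKS1 79.7 to 86.6 CPM, in the order of groups used above. LST8, a subunit of the TOR complexes, was higher with Psd1 than with MTSMss116 (0.58) and than with MTSMge1 (0.40 in PDR3 cells, 0.44 in pdr3Δ cells). With libraries left out in turn, these calls held only without MTSMss116 replicate 2 or 3, only without MTSMge1 replicate 3, and in no case, and scaling by total library size ended the calls against MTSMge1 (edgeR adjusted p = 0.0668 and 0.0821). HAP4, the activator subunit of the HAP complex, averaged 368 to 447 CPM and was not called by edgeR or DESeq2. Of the 5 HAP genes edgeR called only HAP5, higher with Psd1 than with MTSMss116 (0.56), and with libraries left out in turn only without MTSMss116 replicate 2. DESeq2 called HAP5 also with Psd1 over MTSMge1 in PDR3 cells (0.33, adjusted p = 0.0250).

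**Figure D4:**
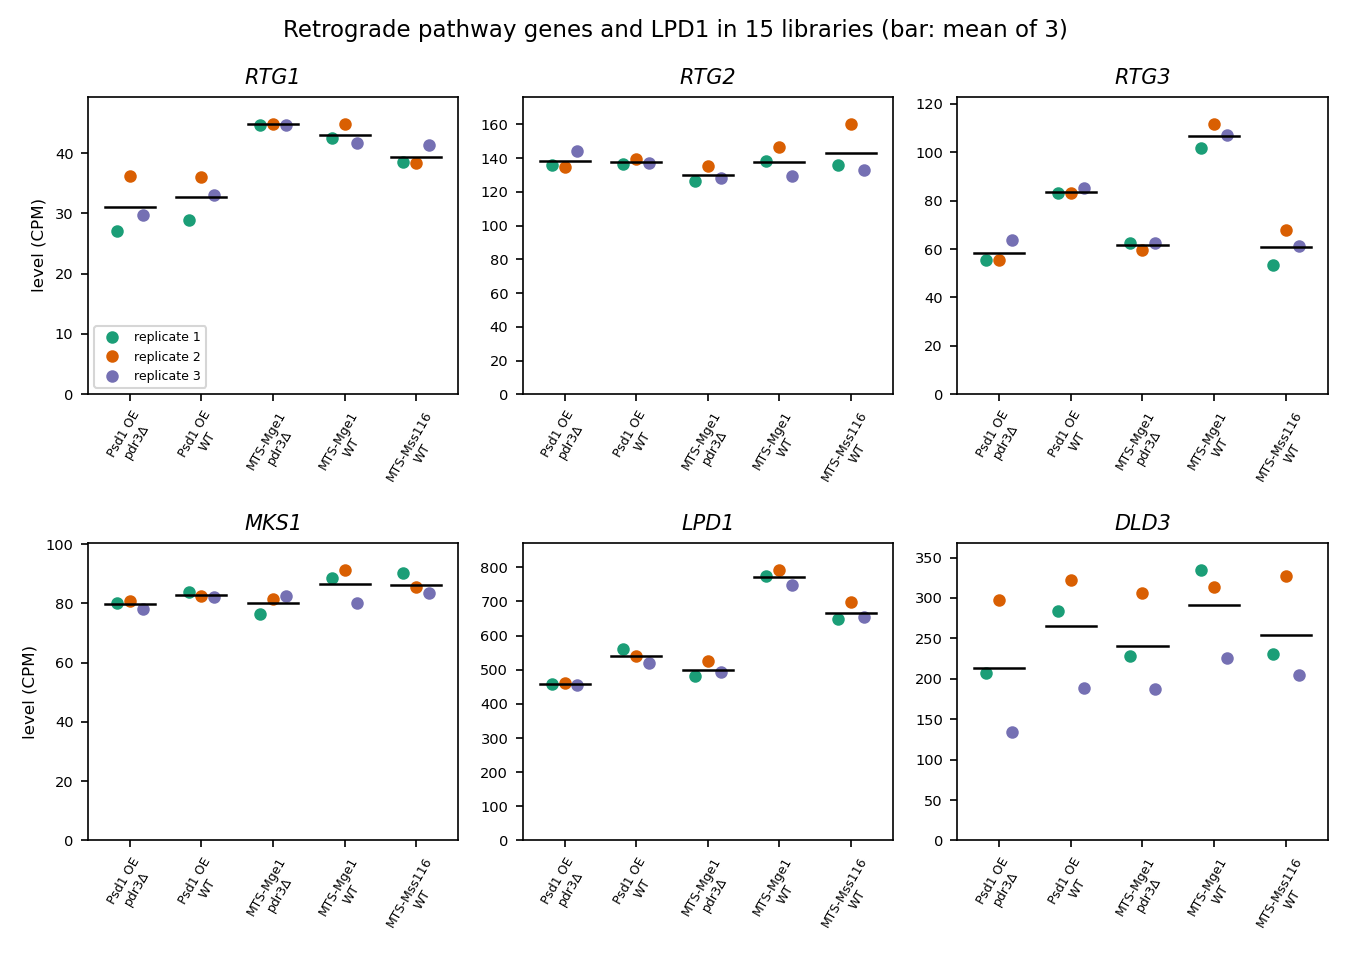
RTG1, RTG2, RTG3, MKS1, LPD1 and DLD3 in CPM (y axis, linear from 0) in the 15 libraries, by group (x axis). Points are replicates 1, 2 and 3 and the bar is the mean of 3. RTG3 is highest in MTSMge1 wild-type cells at 102 to 112 CPM, and DLD3 is lowest in replicate 3 of each group.

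LPD1 followed the genotype under MTSMge1. It had 480.3, 525 and 493 CPM in MTSMge1 pdr3Δ cells, against 775, 793 and 748 CPM in MTSMge1 wild-type cells, without overlap (log2 fold change -0.63, SE 0.09, edgeR adjusted p = 0.0278 without the block and 1.85e-04 with it). The unblocked call was lost when any 1 library was left out. Psd1 cells had 459, 462 and 457 CPM without PDR3, against 560.1, 539.9 and 520.5 CPM with it. The interaction for LPD1 was 0.39 (edgeR adjusted p = 0.848, unadjusted 0.00272), and DESeq2 called it (0.39, adjusted p = 0.00295). LPD1 was also lower with Psd1 than with MTSMge1 in PDR3 cells (-0.52, edgeR adjusted p = 0.0164), a call that held only without MTSMge1 replicate 3.

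DLD3, as CIT2, was lowest in replicate 3 of every group. It had 208, 297 and 135 CPM in Psd1 pdr3Δ cells, 284, 323 and 188 CPM in Psd1 wild-type cells, 228, 306 and 187 CPM in MTSMge1 pdr3Δ cells, 335, 314 and 226 CPM in MTSMge1 wild-type cells and 231, 327 and 204 CPM in MTSMss116 cells. PDH1, which acts beside CIT3 in the methylcitrate cycle, averaged 113 ± 39.8 CPM in Psd1 pdr3Δ, 134 ± 44.6 CPM in Psd1 wild-type, 199.5 ± 59.7 CPM in MTSMge1 pdr3Δ, 269 ± 93.3 CPM in MTSMge1 wild-type and 270.1 ± 77.3 CPM in MTSMss116 cells (SD, n = 3 each), and was not called by edgeR without the block. DESeq2 called PDH1 lower with Psd1 than with MTSMss116 (-1.01, adjusted p = 0.0106) and than with MTSMge1 in PDR3 cells (-1.01, adjusted p = 0.0151) and in pdr3Δ cells (-0.83, adjusted p = 0.0407). Over the 15 libraries, the genes most like CIT2 in log2 CPM were BMH2 (a 14-3-3 protein, Pearson r = 0.957), DLD3 (0.952), DMA2 (a ubiquitin ligase, 0.941), PKP2 (a pyruvate dehydrogenase kinase, 0.939) and CIT1 (0.938), among 5951 genes with at least 10 counts in every library. CIT3 followed at 0.900 and the remaining 7 genes of the set lay between 0.633 and 0.843. These correlations describe libraries that share the replicate number as a source of spread. Within groups, after the group means were removed, r with CIT2 was 0.988 for CIT1 and 0.966 for DLD3. Removing the group means leaves the effect of the replicate number in these values. Over the means of the 5 groups, r with CIT2 was 0.894 for CIT1 and 0.940 for DLD3.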

How the data were processed

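RNA was sequenced as 59-base read pairs from stranded mRNA libraries. Per the labels and methods, the authors aligned reads to the R64 genome with DRAGEN and deposited whole-number read counts per gene from featureCounts, not normalized. The strand setting of the counting is not given in the sources used here. The labels name rich raffinose medium and the methods a synthetic one. All 15 columns were used (0 were left out).

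Each comparison was fitted with edgeR 4.0.16 under R 4.3.3 (TMM normalization, filterByExpr, quasi-likelihood F test, Benjamini-Hochberg adjustment over all genes tested), with only the groups compared in a fit. A gene was called at an adjusted p of 0.05 or less at any fold, and "fell" or "rose" means called. CPM use TMM-normalized totals, and SEs were derived from the F statistic. p-values measure the spread between 3 samples a group. In counts simulated for Psd1 over MTSMss116 (6162 genes), without an effect of the replicate number, the fit recovered 15% of genes changed by a log2 fold of 0.5 and 85% of those changed by 1.

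Alternatives were DESeq2 1.42.0, RLE and total library size scaling, either no filter or a minimum of 10 counts per library, a joint fit of the 5 groups, the replicate number as a block, and each library left out in turn. Same-numbered libraries of pdr3Δ and wild-type cells deviated together (r = 0.232, 0.365 and 0.576 for replicates 1, 2 and 3 under MTSMge1, and 0.128, 0.379 and 0.488 under Psd1), each over the 0.1 set as the limit for a pair, whereas in each other comparison at least 1 pair did not.

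The genes, the further lists (other TCA cycle and pyruvate genes, isozymes outside mitochondria, retrograde regulators, other retrograde and methylcitrate genes, HAP genes) and the tests were chosen with earlier results of these data known. All 10 genes, RTG1, RTG2, RTG3, MKS1, DLD3, PDH1 and HAP4 were always named, other listed genes where called, and the 5 genes most like CIT2 by Pearson r. RefSeq gave the positions and, with its R64 genome, the upstream sequences (6047 of 7127 identifiers matched). Motifs were searched, with Python 3.11.15, in 500 bp before the start codon in place of the promoter windows planned.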

Additional observations from a re-analysis of the deposited data

How the results depend on the processing

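The genes called among the 10 were 1 with DESeq2 for MTSMge1 over MTSMss116 (0 with edgeR). For Psd1 over MTSMss116 they were 5 with DESeq2 and, beside 988 of all genes in either direction, 5 with all groups in 1 fit. Without replicate 3 of both groups 0 of the 10 were called (3 with edgeR). For pdr3Δ over wild type under MTSMge1 they were 1 without replicate 3 of both groups (0), for Psd1 over MTSMge1 6 without replicate 3 of both groups (0), and in pdr3Δ cells 2 with DESeq2 (0). Leaving out replicate 3 of both groups was chosen after the data were seen. With 1 library left out, the calls ranged from 0 to 4 for Psd1 over MTSMss116 and from 0 to 1 for Psd1 over MTSMge1 in pdr3Δ cells.

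With the replicate block, the genes called among the 10 were 5 for pdr3Δ over wild type under MTSMge1 and 1 under Psd1, where the numbers pair the samples. In 3 other comparisons the lowest pair r was just under the limit of 0.1. It was 0.083 for Psd1 over MTSMss116, 0.087 for Psd1 over MTSMge1 and 0.090 for the same in pdr3Δ cells. There the block gave 5 for Psd1 over MTSMss116 (5.69% of all genes lower), 7 for Psd1 over MTSMge1 (8.88%) and 5 for the same in pdr3Δ cells (6.67%), against 3, 0 and 0 without it. For MTSMge1 over MTSMss116 and for the interaction it gave none. The number of all genes called under the block was 867 for Psd1 over MTSMss116, 370 and 603 for pdr3Δ under MTSMge1 and Psd1, 1153 and 949 for Psd1 over MTSMge1 in PDR3 and pdr3Δ cells, and 8 for the interaction.

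Over all genes, the counts for MTSMge1 over MTSMss116 were 40 with edgeR, 123 with DESeq2, 97 with all groups in 1 fit, 21 without replicate 3 of both groups and 22 to 52 with 1 library left out. For Psd1 over MTSMss116 they were 380, 930, 988, 39 and 50 to 1503. For pdr3Δ under MTSMge1 they were 45 with edgeR, 79 with DESeq2, 97 without replicate 3 and 28 to 54 with 1 library left out, and under Psd1 44, 130, 133 and 27 to 122. For Psd1 over MTSMge1 they were 301, 645, 849 and 41 to 426. In pdr3Δ cells they were 242 with edgeR, 587 with DESeq2, 463 with all groups in 1 fit and 3 to 326 with 1 library left out. The interaction gave 1 with edgeR, 12 with DESeq2, 0 with total library size and 0 to 4 with 1 library left out. The cause of these differences was not tested.

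Among log2 fold changes of single genes, the direction turned for IDH1 in Psd1 over MTSMge1 in pdr3Δ cells, which was 0.04 without replicate 3 of both groups. With 1 library left out it ranged from -0.16 to 0.11, and CIT3 in the same comparison from -0.30 to 0.11. CIT1 and CIT3 in MTSMge1 over MTSMss116 ranged from -0.28 to 0.10 and from -0.22 to 0.49, and CIT2 and CIT3 in Psd1 over MTSMss116 from -0.59 to 0.26 and from -0.53 to 0.12. None of these was called. No member turned direction under the other scalings, filters or tools in these 6 comparisons. The share of CIT2 moved by less than 1 SD with raw counts in place of counts per kb and with any 1 library left out.

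With 3 libraries a group, 1 strain a group and the numbers not explained by the labels, the edgeR fits recovered 15% (Psd1 over MTSMss116) and 28% (pdr3Δ over wild type under MTSMge1, 21% with the block) of changes by a log2 fold of 0.5 in simulated counts, and smaller changes were not simulated. The simulated counts held no effect of the replicate number, so they do not show what the block gains in the real counts. Their spread followed the trend over all genes, not that of single genes such as CIT2.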
